A study of Mus musculus with 16 samples.

Results

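The difference in the effect of interleukin-13 (IL-13) pre-treatment between day 6 and day 0 of adipocyte differentiation was measured. All 16 of the 16 libraries were used, and none was left out. For every gene the difference is the log2 fold change of IL-13 over untreated cells at day 6 minus the same fold change at day 0. The cells were one immortalized line of wild type mouse preadipocytes of strain C57Bl6/J, that is, fat cell precursors that turn into adipocytes in culture. The 4 groups of 4 libraries were cells with no agent at day 0, cells given IL-13 beforehand for 16 h at day 0, cells with no agent at day 6, and cells given IL-13 beforehand for 16 h at day 6. The labels call the IL-13 a pre-treatment on both days. At day 6 its effect is therefore read as what an earlier exposure left, and not as a response of adipocytes to IL-13 added then. The measurement was the number of reads per gene from polyadenylated RNA, prepared with a stranded kit. Levels are CPM, counts scaled to library size, and a ± after a level is the SD over the 4 libraries of a group, whereas a ± after a log2 difference is its standard error (SE). Whether libraries with the same treatment and day came from separate cultures is not stated in the labels. The p-values therefore measure only how much these libraries vary, and that variation may be technical. With a single line, other preadipocytes are not represented.

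IL-13 is a cytokine of type 2 immunity. It binds a receptor made of Il4ra and Il13ra1, which activates Jak kinases and, through them, the transcription factor Stat6, while Il13ra2 binds IL-13 as a decoy and Socs and Cish proteins dampen the signal. In fat tissue the related cytokines IL-4 and IL-13 are known for acting on macrophages and on fat cell precursors. During adipogenesis the regulators Pparg and Cebpa switch on genes of lipid storage as precursor genes are shut off.

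Library totals lay between 15253031 and 18112087 counts, and 15447 to 16201 genes had at least 1 count. The labelled cell types matched their markers: the summed level of 26 mature adipocyte markers was 1158 to 1268 CPM in the day 0 libraries and 41284 to 49277 in the day 6 libraries, and that of 20 preadipocyte markers was 2911 to 3235 at day 0 and 840 to 969 at day 6. Of the defining markers of other cells, Adgre1, Aif1, Cd163 and Tyrobp of macrophages and Erg and Tie1 of endothelium had 0 counts in all libraries. The others were low: over all day 0 libraries the 12 macrophage markers summed to 7.15 to 11.99 CPM and the 9 endothelial ones to 3.64 to 4.37 CPM untreated and 6.59 to 8.39 CPM with IL-13. The 11 lymphocyte and mast cell markers summed to 0.0576 to 0.308 CPM at day 0 and to 11.4 to 18.8 CPM at day 6. The part of such transcripts in the results was not tested. In bulk RNA, fewer cells of a type and less RNA per cell cannot be told apart. Each day was deposited as its own table, so a change in level from day 0 to day 6 cannot be told apart from a difference between the tables. The IL-13 effects are taken within a day. RNA that stays in the nucleus also differed between the groups: the mean log2 CPM of 22 such transcripts was 6.20 ± 0.265 in untreated and 5.66 ± 0.0617 in IL-13 cells at day 0, and 6.65 ± 0.207 in untreated and 5.95 ± 0.233 in IL-13 cells at day 6 (SD, n = 4). IL-13 cells were thus lower by 0.54 at day 0 and by 0.70 at day 6. The untreated libraries with most of it were replicates 1 and 4 at day 0 and replicates 1 and 2 at day 6. Counts without those 4 libraries are given beside many of the results they move by more than 1.5 times. Further ones are in the closing section on processing.

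Some of the genes described below carry, just upstream of a start site, the letters TTCNNNGAA or TTCNNNNGAA. These are the forms to which STAT factors bind, the longer spacing being the one associated with Stat6, and both read the same on either strand. Windows around 1 such match are shown for a pair of genes whose response was smaller and no longer called at day 6 (Serpina3g and Tmem26), for one whose response was smaller and still called (Pcolce2) and for one whose response turned (Bcl6). The sequences are those of the RefSeq promoter table for GRCm38.p6, from 250 bases before to 50 bases after each start, read in the direction of the gene, with the match in capitals.
Serpina3g: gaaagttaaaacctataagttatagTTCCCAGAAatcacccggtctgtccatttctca
Tmem26: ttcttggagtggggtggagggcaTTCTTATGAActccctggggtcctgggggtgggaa
Pcolce2: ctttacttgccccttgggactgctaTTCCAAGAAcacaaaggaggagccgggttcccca
Bcl6: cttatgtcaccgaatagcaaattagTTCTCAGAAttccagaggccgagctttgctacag
They lie at chr12:104236089-104236146 (plus strand), chr10:68723496-68723553 (plus strand), chr9:95637433-95637491 (plus strand) and chr16:23988937-23988995 (minus strand). The shares that follow are of genes, each counted once if any of its windows held a match, also in the 50 bases after the start. TTCNNNNGAA occurred for 8.01% of the 27025 genes of the table and 6.55% of the 10099 tested genes matched to it. Of genes that IL-13 raised at least 2-fold at day 0 with a smaller effect at day 6, 10 of the 145 matched (6.90%) had it. TTCNNNGAA occurred for 9.55% of all genes of the table, 8.22% of the matched tested genes and 11 of those 145 (7.59%). Among genes lowered at least 2-fold at day 0 with a smaller effect at day 6, the counts were 3 (5.26%) and 8 (14.04%) of 57. A match is a description of these letters and not a measured binding site.

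Of 13157 genes tested, 1061 (8.06%) had a different IL-13 effect on the 2 days in edgeR's quasi-likelihood test at a Benjamini-Hochberg adjusted p under 0.05, with 410 (3.12%) of the differences positive and 651 (4.95%) negative. The bulk were responses of day 0 that were smaller at day 6. In 602 of the 651, the gene was raised by IL-13 at day 0, and in 393 of the 410 it was lowered. The day 0 effect is itself a term of the difference, so this match of signs is partly built in and is a description. At day 0 alone IL-13 changed 5407 genes (41.1%; 2842 higher, 21.6%, and 2565 lower, 19.5%), and at day 6 it changed 1405 (10.7%; 482 higher, 3.66%, and 923 lower, 7.02%). The plot of the effect at day 6 against that at day 0 shows the called genes spread along the day 0 axis.

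**Figure D1:**
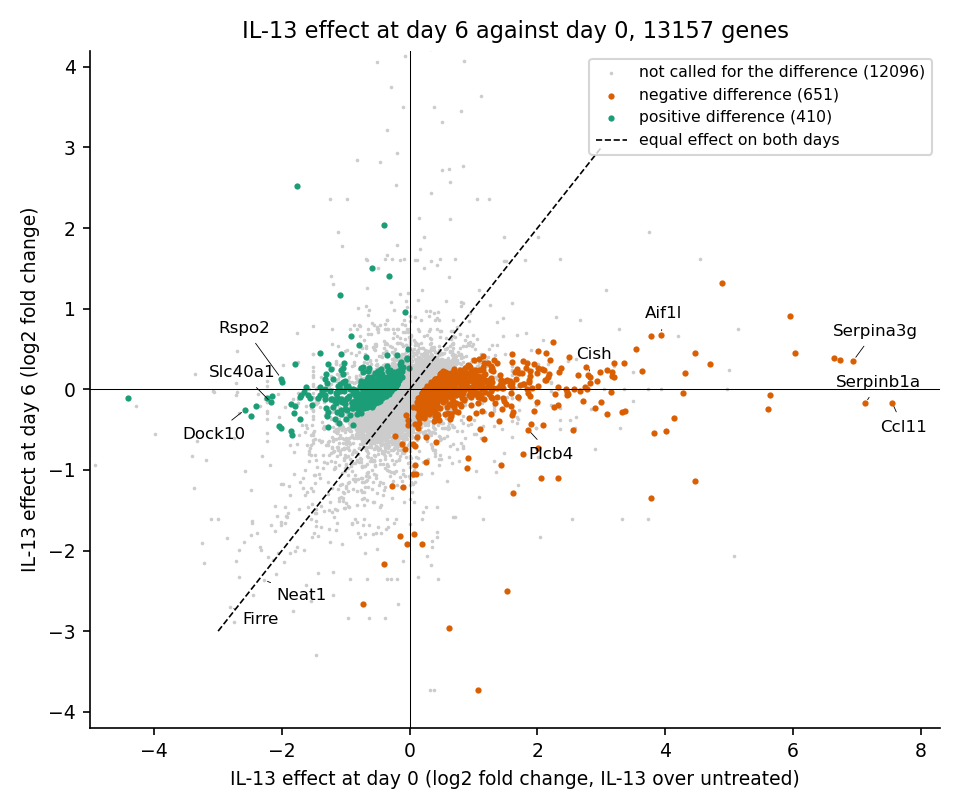
Log2 fold change of IL-13 over untreated at day 6 (vertical) against day 0 (horizontal) for 13157 genes, 14 of them outside the axes, with the 651 negative differences in orange, the 410 positive in green and the line of equal effect dashed. Ccl11, Serpinb1a and Serpina3g lie far to the right near a day 6 effect of 0, and Neat1 and Firre lie on the line of equal effect.

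The division between positive and negative depended on how libraries were scaled: DESeq2's size factors in edgeR gave 509 positive and 505 negative, total count scaling 516 and 498, and DESeq2 itself 616 and 594. Leaving out 1 library gave between 836 and 1269 differences. In the main fit 38.6% of the called differences were positive. Without untreated replicate 3 of day 0 the positive share was 37.5%, with 747 negative. In every other fit that left out 1 library it lay between 48.9% and 55.3%, with fewer negative ones than the 651. The excess of negative differences was thus not kept in those fits. The number of negative ones moved by more than 1.5 times without untreated replicate 1 (428) or 2 (424) of day 0, IL-13 replicate 2 (427) or 3 (418) of day 0, or untreated replicate 3 of day 6 (421), and that of positive ones without IL-13 replicate 3 of day 6 (696). Without the 4 untreated libraries richest in nuclear RNA there were 231 positive and 314 negative. Of these, 224 of the positive were in genes lowered at day 0 and 301 of the negative in genes raised at day 0. The number of genes called at day 0 fell from 5407 to 2353 without those 4 libraries, and to 1455 with the nuclear RNA index in the fit. The number called at day 6 was less stable still. It was 324, 449, 902 and 476 without untreated replicate 1, untreated replicate 2, IL-13 replicate 2 and IL-13 replicate 3 of that day, 2216 and 3182 without untreated replicate 4 and IL-13 replicate 1, and 37 without the 4 libraries richest in nuclear RNA. It was 2352 in DESeq2. Once the nuclear RNA index was added to the edgeR fit, 0 genes were called at day 6, with 1063 at an unadjusted p under 0.05.

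Among the 1061, 555 negative and 384 positive differences belonged to genes called at day 0 and not at day 6. Another 28 negative and 4 positive belonged to genes called on both days in the same direction with the smaller effect at day 6. In 24 the effects were called on both days in opposite directions, in 40 the gene was called at day 6 and not at day 0, in 2 the day 6 effect was the larger of a pair in the same direction, and in 24 neither day's effect was called. A gene called on one day and not on the other counts here for the test of the difference itself, which all 1061 passed.

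Of the 282 genes (2.14%) raised at least 2-fold at day 0, the median log2 effect was 1.66 at day 0 and 0.09 at day 6. In 204 of them (72.3%) the effect at day 6 was called smaller, in 18 (6.38%) it was called in the same direction, and in 229 (81.2%) it lay within 0.5 of 0. Of the 327 genes (2.49%) lowered at least 2-fold at day 0, the median was -1.31 at day 0 and -0.57 at day 6. In 79 (24.2%) the effect was called smaller, in 101 (30.9%) it was called in the same direction at day 6, and in 97 it was still at least 2-fold lower. The part of nuclear RNA in the lowered set was not tested. Without the 4 libraries richest in it, the median effect of the lowered set was -1.19 at day 0 and -0.39 at day 6 (320 genes). With the index as a covariate it was -0.99 at day 0 and -0.06 at day 6. The raised set had 1.66 and 0.11 without the 4 libraries, and 1.53 and -0.05 with the index. Genes called lower by at least 2-fold at day 0 numbered 168 without the 4 libraries and 116 with the index. The index and the IL-13 treatment separate the same libraries, so they cannot be told apart here. Since the same libraries chose both sets by their day 0 effect, these values are a description with no test.

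**Figure D2:**
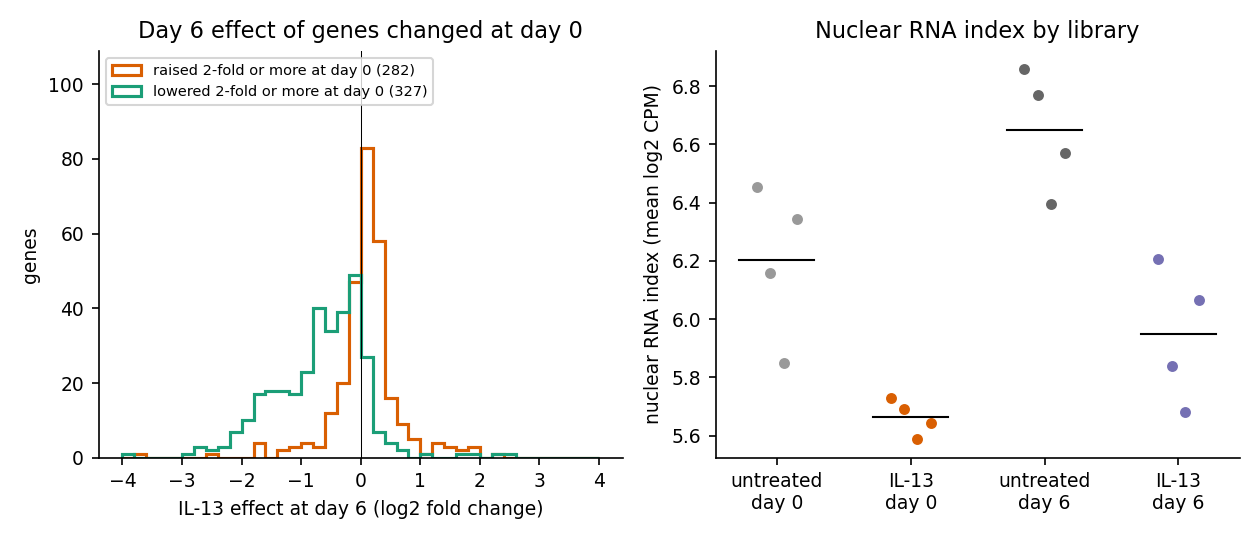
Left, number of genes by IL-13 effect at day 6 (log2 fold change) for the 282 genes raised and the 327 lowered at least 2-fold at day 0. Right, nuclear RNA index (mean log2 CPM of 22 transcripts) in each library with the group mean as a line: the IL-13 libraries of day 0 lie between 5.59 and 5.73, below every untreated library, and the lowered genes trail to the left of 0.

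The counts called in the same direction at day 6 rested on single libraries. The 18 raised genes became 7, 10, 11 and 10 without untreated replicate 1, untreated replicate 2, IL-13 replicate 2 and IL-13 replicate 3 of day 6, and 48 without IL-13 replicate 1 of day 6, each time over the genes raised at least 2-fold in that fit. The 101 lowered genes became 48, 59 and 62 without untreated replicate 1, untreated replicate 2 and IL-13 replicate 3 of day 6. Without the 4 libraries richest in nuclear RNA, the 18 raised genes became 2 and the 101 lowered genes 4. With the nuclear RNA index in the fit, both became 0.

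Most tested response genes of IL-4 and IL-13 had a smaller IL-13 effect at day 6. The list holds 20 genes, of which 11 had enough counts to be tested. It was chosen with earlier results of these data known, so its direction is not independent evidence. Of the 11, 8 had a negative difference and none a positive one (72.7% called, against 8.06% over all genes). The median difference was -1.30, against -0.02 over all genes tested. At day 0, 8 were higher and 1 lower with IL-13. At day 6 none was higher and 1, Bcl6, was lower. The 8 were Ccl11, Il13ra2, Cish, Socs1, Tgm2, Postn, Il4ra and Bcl6.

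Ccl11 (ENSMUSG00000020676, GRCm38 chromosome 11, 82057823 to 82062955) encodes eotaxin, which attracts eosinophils. Its level was 0.0512, 0.0616, 0.115 and 0.107 CPM in untreated and 17.1, 15.4, 16.0 and 20.0 CPM in IL-13 cells at day 0. At day 6 it was 1.55, 1.19, 1.12 and 0.638 CPM in untreated and 0.680, 1.80, 0.535 and 0.933 CPM in IL-13 cells. The groups were far apart at day 0 and overlapped at day 6, with the untreated cells of day 6 above those of day 0. The difference was -7.72 ± 0.52 (SE; edgeR adjusted p 1.81e-09). At day 0 the untreated libraries held only 6 counts of it in all.

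Cish (chromosome 9, 107296026 to 107302784), a feedback inhibitor of cytokine signalling, stood at 9.89, 9.98, 9.84 and 11.7 CPM in untreated and at 68.4, 77.9, 72.0 and 69.5 CPM in IL-13 cells at day 0. On day 6 it stood at 7.85, 9.39, 9.83 and 7.43 CPM without and 9.09, 11.04, 9.63 and 9.15 CPM with IL-13. Only the IL-13 libraries of day 0 stood apart, and the other 3 groups lay between 7.43 and 11.7 CPM. The difference was -2.62 ± 0.13 (edgeR adjusted p 1.84e-11). Socs1, which inhibits Jak kinases, was at 0.618 ± 0.165 and 2.72 ± 0.566 CPM at day 0 and at 0.337 ± 0.172 and 0.462 ± 0.186 CPM at day 6, untreated before IL-13 (SD, n = 4). Its difference of -1.68 was near the threshold (edgeR adjusted p 0.049) and was no longer called in 14 of the 16 fits that each left out 1 library, nor with the other scalings.

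Receptor genes differed in how far they moved. Il4ra (chromosome 7, 125552120 to 125579474), the signalling subunit shared by the IL-4 and IL-13 receptors, was at 29.9, 32.5, 35.3 and 32.0 CPM untreated and 87.9, 82.1, 89.4 and 85.1 CPM with IL-13 at day 0, and at 53.8, 61.3, 65.6 and 61.3 CPM untreated and 62.5, 73.3, 71.1 and 66.9 CPM with IL-13 at day 6. Untreated cells of day 6 lay above untreated cells of day 0, and the 2 groups of day 6 overlapped. The difference was -1.23 ± 0.10 (edgeR adjusted p 1.37e-08), and in the list of receptors and signalling genes, which does not hold Il13ra2, Il4ra was the only called one of 9 tested. Il13ra1, the other subunit, was at 11.5 ± 1.10 and 8.88 ± 0.458 CPM at day 0 and at 0.927 ± 0.0800 and 0.856 ± 0.281 CPM at day 6, with no called difference (0.26, edgeR adjusted p 0.659). Stat6 was at 173 ± 6.45, 180 ± 7.02, 145 ± 6.12 and 147 ± 5.32 CPM in the 4 groups, and its difference of -0.03 ± 0.07 was not called (edgeR adjusted p 0.887) and took the other sign under other scalings. Il13ra2 had 0 counts in the 4 untreated libraries of day 0 and 30 in the IL-13 libraries, which is at least 11.05-fold higher against a floor of 3 counts over the group. At day 6 it had 24 and 45 counts, a log2 effect of 0.91 that was not called (edgeR adjusted p 0.133). Its difference was called (edgeR adjusted p 0.00609), but with 0 counts in 1 group its fitted size of -5.06 ± 1.08 depends on the fit's prior count.

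Tgm2, a transglutaminase that crosslinks proteins, and Postn, a matrix protein, differ in what the untreated cells did. Tgm2 (chromosome 2, 158116402 to 158146436) was at 31.6 ± 2.87 and 104 ± 2.70 CPM at day 0 and at 586 ± 39.5 and 676 ± 68.4 CPM at day 6 (SD, n = 4), a difference of -1.51 ± 0.11 (edgeR adjusted p 2.84e-09). Postn was at 2337 ± 112 and 5537 ± 678 CPM at day 0 and at 1035 ± 64.8 and 997 ± 69.4 CPM at day 6, a difference of -1.30 ± 0.12 (edgeR adjusted p 1.1e-07). In both, the day 0 groups were apart and the day 6 groups overlapped, but Tgm2 was higher at day 6 than in either day 0 group and Postn lower. In Tgm2, 21.8% of exon bases overlap a gene on the other strand, and whether counting used the strand is not given in the sources used here.

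Serine protease inhibitors of the Serpina3 and Serpinb families included 3 of the 4 most negative differences among called genes averaging at least 1 in log2 CPM. Of 18 tested serpins, 9 had a negative and 1 a positive difference (55.6% called, against 8.06% over all genes), with a median difference of -1.40. At day 0, 14 were higher and 2 lower with IL-13, and at day 6, 3 were higher (Serpina3c, Serpinb6a and Serpinf1) and none lower. The family list was written with these genes already known to have moved in these samples, so its direction is not independent evidence.

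Serpina3g (ENSMUSG00000041481, chromosome 12, 104236245 to 104241939) was at 1.38, 2.40, 2.25 and 1.87 CPM untreated and at 243, 221, 256 and 248 CPM with IL-13 at day 0. On day 6 the level was 6.82, 8.85, 9.83 and 6.79 CPM untreated and at 10.02, 10.8, 11.2 and 9.27 CPM with IL-13. Only the IL-13 cells of day 0 were high, and at day 6 the groups overlapped in the range of a few CPM to about 10. The difference was -6.59 ± 0.18 (edgeR adjusted p 1.62e-15). Its neighbours on chromosome 12 did likewise, with differences of -6.36 ± 0.30 for Serpina3n, -5.59 ± 0.23 for Serpina3c, -5.86 ± 0.91 for Serpina3f and -4.37 ± 0.72 for Serpina3m. Serpina3c alone of these kept a called effect at day 6 (6.74 ± 0.619 untreated and 9.23 ± 1.38 CPM with IL-13, log2 effect 0.45, edgeR adjusted p 0.0238). These genes share sequence: 15.5% of 50-base stretches of Serpina3g, 6.90% of Serpina3n, 4.25% of Serpina3c, 10.6% of Serpina3f and 19.1% of Serpina3m occur in another gene, so their counts may be partly shared.

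Serpinb1a (chromosome 13, 32842092 to 32851185), which inhibits neutrophil proteases, was high in the IL-13 cells of day 0 alone. It was at 1.79, 2.71, 1.96 and 1.34 CPM untreated and at 295, 254, 266 and 273 CPM with IL-13 at day 0, and at 0.258, 0.119, 0 and 0.116 CPM untreated and 0.124, 0.0620, 0.134 and 0.117 CPM with IL-13 at day 6. The 8 libraries of day 6 held 8 and 7 counts in all, so its day 6 effect of -0.17 ± 0.71 is poorly determined, and its difference was -7.31 ± 0.96 (edgeR adjusted p 2.12e-05). Serpinb9b stood at 1.13 ± 0.126 and 8.53 ± 0.761 CPM at day 0 and at 0.288 ± 0.177 and 0.248 ± 0.0852 CPM at day 6, untreated before IL-13 (difference -3.14 ± 0.47).

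**Figure D3:**
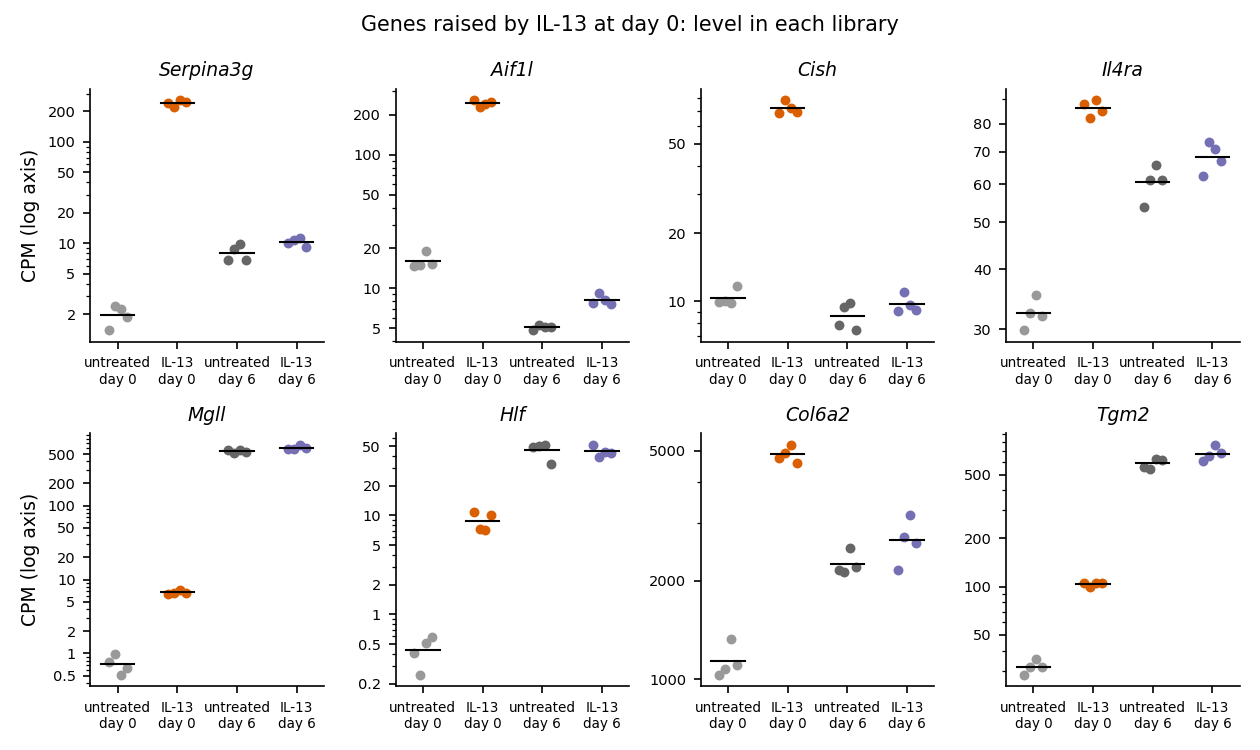
Level in CPM (log axis) of 8 genes raised by IL-13 at day 0, 1 point for each library and a line at the group mean. Serpina3g, Aif1l, Cish and Col6a2 are highest in the IL-13 cells of day 0, whereas Mgll, Hlf and Tgm2 are higher at day 6 than in either day 0 group.

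The IL-13 response of chemokines in the chromosome 11 cluster around Ccl11 was not called at day 6. Of 11 tested chemokines, 4 had a negative difference and none a positive one (36.4% called, against 8.06% over all genes). The 4 were Ccl11, Ccl2, Ccl7 and Ccl8, which draw monocytes and eosinophils. Ccl2 was at 7.33, 6.84, 6.56 and 8.19 CPM untreated and at 73.6, 81.5, 68.2 and 76.4 CPM with IL-13 at day 0, against 1.19 ± 0.280 and 0.995 ± 0.294 CPM at day 6. Ccl7 was at 23.4 ± 2.97 and 199 ± 4.09 CPM at day 0, against 1.53 ± 0.373 and 1.24 ± 0.0995 CPM at day 6. For both, all libraries of day 6 lay below all libraries of day 0, with or without IL-13. The differences were -3.64 ± 0.26 for Ccl2, -3.40 ± 0.22 for Ccl7 and -3.42 ± 0.74 for Ccl8 (edgeR adjusted p 3.2e-09, 1.18e-09 and 0.00466). The other 7 members were not called, and the median of the list was 0.12.

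Genes outside these families also stood among the 12 largest negative differences of genes averaging at least 1 in log2 CPM. They were Rasgrf2 (-6.25), an exchange factor for Ras, Myocd (-5.61), the coactivator of smooth muscle genes, Hlf (-4.34), a transcription factor of the PAR bZIP family, Elf3 (-4.11), an Ets factor, Crispld2 (-4.02), a secreted protein, and Gda (-3.41), guanine deaminase. Myocd was at 0.666, 0.554, 0.864 and 0.428 CPM untreated and at 13.96, 13.8, 13.6 and 15.02 CPM with IL-13 at day 0, and had 5 and 2 counts in the untreated and IL-13 libraries of day 6. Its difference was no longer called without untreated replicate 3 of day 6 (highest edgeR adjusted p 0.0767). Of 16 tested smooth muscle genes, 2 had a negative difference (Myocd and Mylk) and 1 a positive one (Tpm1), and the median was 0.10. That is 18.8% of the list, against 8.06% of all genes.

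Hlf was one of the genes with more transcript at day 6 than in either group of day 0. Its level was 0.410, 0.246, 0.518 and 0.589 CPM untreated and 10.8, 7.35, 7.12 and 10.03 CPM with IL-13 at day 0, and 49.7, 50.9, 51.0 and 32.9 CPM untreated and 51.8, 39.4, 44.2 and 42.4 CPM with IL-13 at day 6. The IL-13 cells of day 0 lay between the untreated cells of day 0 and all cells of day 6. Elf3 and Gda had the same order, with Gda at 0.119 ± 0.107, 1.64 ± 0.460, 47.2 ± 3.55 and 55.2 ± 4.09 CPM in untreated and IL-13 cells of day 0 and of day 6.

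This order was counted over all genes raised at least 2-fold at day 0 with a called smaller effect. In 57 of 204 (27.9%) the untreated level at day 6 was above both day 0 levels, in 54 between them and in 93 below both. In the 57, a log2 effect that shrank need not be a smaller change in CPM: 42 kept the negative sign when the difference was taken in CPM.. Of the 79 genes lowered at least 2-fold with a called smaller effect, 37 had an untreated day 6 level above both day 0 levels, and 27 of those kept the sign in CPM. The genes between or below the day 0 levels all kept it.

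Genes of the mature adipocyte were among those where the scale mattered. Mgll (chromosome 6, 88724412 to 88828360), which completes the breakdown of triglycerides, was at 0.768, 0.986, 0.518 and 0.643 CPM untreated and at 6.35, 6.65, 7.24 and 6.52 CPM with IL-13 at day 0. On day 6 it reached 572, 510, 572 and 541 CPM untreated and 581, 582, 668 and 604 CPM with IL-13. The day 6 groups did not overlap, but their effect of 0.15 was not called (edgeR adjusted p 0.115). The log2 difference was -3.04 ± 0.16 (edgeR adjusted p 2.8e-11), while the gap between IL-13 and untreated cells in CPM was larger at day 6 than at day 0 by 54.2. Plin1, the coat protein of lipid droplets, was at 0.111 ± 0.0430, 0.434 ± 0.103, 574 ± 26.04 and 646 ± 60.3 CPM (difference -1.71, edgeR adjusted p 0.0149), and Pnpla2, the lipase that starts triglyceride breakdown, at 19.7 ± 2.85, 38.6 ± 4.30, 960 ± 80.8 and 1050 ± 120 CPM (difference -0.85, edgeR adjusted p 0.000493), each in untreated and IL-13 cells of day 0 and then of day 6. The call of Plin1 was lost without untreated replicate 1 or 3 or IL-13 replicate 4 of day 0.

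Of 25 tested mature adipocyte genes, 4 had a negative difference (Mgll, Pnpla2, Plin1 and Lipe) and 2 a positive one (Lpl and Agpat2). The called share was 24.0%, against 8.06% over all genes, and the median difference was 0.07. Without the 4 libraries richest in nuclear RNA there were 2 negative and 1 positive. The 4 negative ones take part in the storage or breakdown of triglyceride in the droplet. Lipe, hormone-sensitive lipase, lost its call in 13 of the 16 fits that each left out 1 library. Lpl, the lipase that takes fatty acids from lipoproteins, was at 330 ± 12.2 and 265 ± 7.46 CPM at day 0 and 5372 ± 98.7 and 5692 ± 319 CPM at day 6 (difference 0.40 ± 0.08, edgeR adjusted p 0.00351). Agpat2, an enzyme of triglyceride synthesis, was at 17.2 ± 1.40 and 16.6 ± 1.056 CPM at day 0 and at 786 ± 70.2 and 1021 ± 106 CPM at day 6, without overlap on day 6 (difference 0.43 ± 0.12, edgeR adjusted p 0.0311). Its call was lost without untreated replicate 3 or IL-13 replicate 2 of day 0. At day 6, Agpat2, Adipoq and Aoc3 of this list were higher with IL-13. Fabp4, the fatty acid binding protein of adipocytes, had no called effect on either day (difference 0.15, edgeR adjusted p 0.447), and Ucp1, the uncoupling protein of brown fat, had 0 counts at day 0 in both groups and 33.3 ± 7.48 and 43.2 ± 10.3 CPM at day 6, which overlapped.

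The regulators of adipogenesis divided. Pparg (chromosome 6, 115360951 to 115490399) was at 62.1, 62.5, 65.4 and 61.2 CPM untreated and at 96.0, 95.4, 98.3 and 84.5 CPM with IL-13 at day 0, and at 274 ± 18.3 and 283 ± 10.95 CPM at day 6. Its difference was -0.53 ± 0.08 (edgeR adjusted p 0.000151), the day 0 groups being apart and the day 6 groups overlapping. Cebpa (chromosome 7, 35119293 to 35121928) was at 21.9, 23.3, 24.8 and 23.4 CPM untreated and 15.8, 16.8, 17.7 and 16.1 CPM with IL-13 at day 0, and at 250, 234, 268 and 279 CPM untreated and 276, 287, 324 and 305 CPM with IL-13 at day 6. All IL-13 libraries of day 0 lay below the untreated ones, whereas at day 6 only 1 IL-13 library lay within the untreated range. Its difference was 0.70 ± 0.10 (edgeR adjusted p 4.25e-05). Of 21 tested regulators, 3 had a negative difference (Klf4, Pparg and Dlk1) and Cebpa alone a positive one (19.0% called, against 8.06% over all genes). There were 3 and 2 with DESeq2's size factors in edgeR and 2 and 1 without the 4 libraries richest in nuclear RNA. Klf4, a transcription factor of early adipogenesis, was at 30.6 ± 1.502 and 109 ± 3.74 CPM at day 0 and at 4.62 ± 0.486 and 4.60 ± 1.20 CPM at day 6 (difference -1.83 ± 0.16).

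Of 16 tested preadipocyte genes, 3 had a negative difference and none a positive one, namely Cd34, Sfrp1 and Dlk1. These are 18.8% of the list, against 8.06% of all genes. Without the 4 libraries richest in nuclear RNA 1 was negative, and with DESeq2 2 others were positive. Sfrp1, a secreted Wnt antagonist, was at 113 ± 2.69 and 221 ± 4.43 CPM at day 0 and at 16.1 ± 1.82 and 15.5 ± 2.06 CPM at day 6 (difference -1.02 ± 0.11, edgeR adjusted p 2.3e-06). Dlk1, a surface protein of precursors that restrains adipogenesis, behaved otherwise: it was at 25.97 ± 3.62 and 26.9 ± 2.92 CPM at day 0, and at 1.35, 1.84, 1.39 and 1.33 CPM untreated and 0.618, 0.372, 0.869 and 0.991 CPM with IL-13 at day 6. The day 0 groups overlapped and the day 6 groups did not. Its difference of -1.10 ± 0.29 (edgeR adjusted p 0.0212) was lost without untreated replicate 2, IL-13 replicate 1 or IL-13 replicate 2 of day 6. Of 16 tested thermogenic genes, Tmem26, a surface marker of beige adipocytes, had a negative difference (12.3 ± 1.60 and 126 ± 7.04 CPM at day 0, 4.70 ± 0.911 and 5.86 ± 0.580 CPM at day 6, -3.03 ± 0.17) and Pdk4, which restrains pyruvate oxidation, a positive one (0.72 ± 0.10). This called share of 12.5% is near the 8.06% of all genes.

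Matrix genes had differences in both directions. Of 25 tested collagens and their enzymes, 7 had a negative and 2 a positive difference (Col8a1 and Col12a1), with a median of -0.23. Together they are 36.0% of the list, against 8.06% of all genes. Adding the nuclear RNA index gave 12 negative and 3 positive, and leaving out the 4 libraries richest in it gave 6 and 1. Col6a1 and Col6a2, neighbouring genes on chromosome 10 for chains of collagen VI, were among the most abundant transcripts: Col6a2 was at 1035, 1076, 1329 and 1105 CPM untreated and 4754, 4929, 5215 and 4580 CPM with IL-13 at day 0, and at 2156, 2124, 2527 and 2204 CPM untreated and 2160, 2728, 3171 and 2603 CPM with IL-13 at day 6. At day 6, 3 of the 4 IL-13 libraries lay above all untreated ones. The differences were -1.86 ± 0.14 for Col6a2 and -1.56 ± 0.13 for Col6a1 (edgeR adjusted p 1.05e-08 and 4.06e-08). Col14a1 stood at 1.57 ± 0.210 and 10.5 ± 1.253 CPM at day 0 and at 1.61 ± 0.648 and 1.62 ± 0.228 CPM at day 6 (-2.72 ± 0.29). Col8a1 was lowered at day 0, at 43.9 ± 1.18 untreated and 13.5 ± 0.645 CPM with IL-13, and near 0.3 CPM in both groups of day 6 (0.302 ± 0.190 and 0.280 ± 0.110), so its difference of 1.64 ± 0.43 rests on 19 and 18 counts. Its call was lost without replicate 2 of either day 6 group or IL-13 replicate 4 of day 6. Of 26 tested matrix glycoproteins, 4 had a negative and 3 a positive difference (26.9% called, against 8.06% over all genes). The positive ones were the leucine-rich proteoglycans Dcn (1.67 ± 0.33) and Lum (1.53 ± 0.47) and the basement membrane protein Nid2. Without the 4 libraries richest in nuclear RNA, 1 was positive. The call of Lum was lost in 9 of the 16 fits that each left out 1 library. Dcn was at 2.21 ± 0.333 and 0.603 ± 0.258 CPM at day 0 and at 112 ± 14.3 and 98.0 ± 12.6 CPM at day 6, untreated before IL-13. Taken in CPM, its difference was -12.1, which is the other sign.

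Among genes that IL-13 lowered at day 0 and whose effect was smaller at day 6 were the iron exporter Slc40a1, the Wnt agonist Rspo2 and the exchange factor Dock10. Slc40a1 (ENSMUSG00000025993, chromosome 1, 45908068 to 45926523) was at 22.4, 24.6, 17.3 and 26.9 CPM untreated and at 5.99, 3.67, 4.04 and 6.58 CPM with IL-13 at day 0, and at 41.5, 48.7, 43.7 and 37.8 CPM untreated and 44.8, 41.0, 32.0 and 35.4 CPM with IL-13 at day 6. The day 0 groups were apart, and at day 6 both groups overlapped above them. The difference was 2.01 ± 0.23 (edgeR adjusted p 8.89e-06). Rspo2 (chromosome 15, 43020794 to 43170826) was at 68.5, 67.8, 66.6 and 69.1 CPM untreated and at 15.5, 16.7, 16.4 and 18.8 CPM with IL-13 at day 0. At day 6 it was at 2.83, 4.34, 3.69 and 3.71 CPM untreated and at 4.89, 4.65, 3.48 and 3.03 CPM with IL-13. Both day 6 groups lay below the IL-13 cells of day 0 and overlapped, and the difference was 2.14 ± 0.18 (edgeR adjusted p 3.03e-08).

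Dock10 was at 5.37 ± 1.03 and 0.902 ± 0.380 CPM at day 0 and at 14.95 ± 2.93 and 12.5 ± 2.08 CPM at day 6 (2.33 ± 0.31), and Adcyap1r1, the receptor of the peptide PACAP, at 19.1 ± 1.32 and 4.27 ± 1.26 CPM at day 0 and 1.26 ± 0.217 and 1.21 ± 0.361 CPM at day 6 (2.08 ± 0.31). The remaining largest positive differences were Slc1a6 (2.10), a glutamate transporter, Gfra1 (1.73), a GDNF receptor, Dcn, Trib2 (1.66), a pseudokinase, Col8a1, Ankrd37 (1.63), Olfml2a (1.62) and Angpt1 (1.59), the ligand of Tie2. Slc1a6 and Gfra1 are low at day 6, and each lost its call in fits without single day 6 libraries: Slc1a6 without untreated replicate 2 or 4 or IL-13 replicate 1, and Gfra1 without replicate 2 or 3 of either group. Gfra1 was also not lowered at day 0 by the test (effect -0.32, edgeR adjusted p 0.24) and was called higher at day 6 (1.41).

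**Figure D4:**
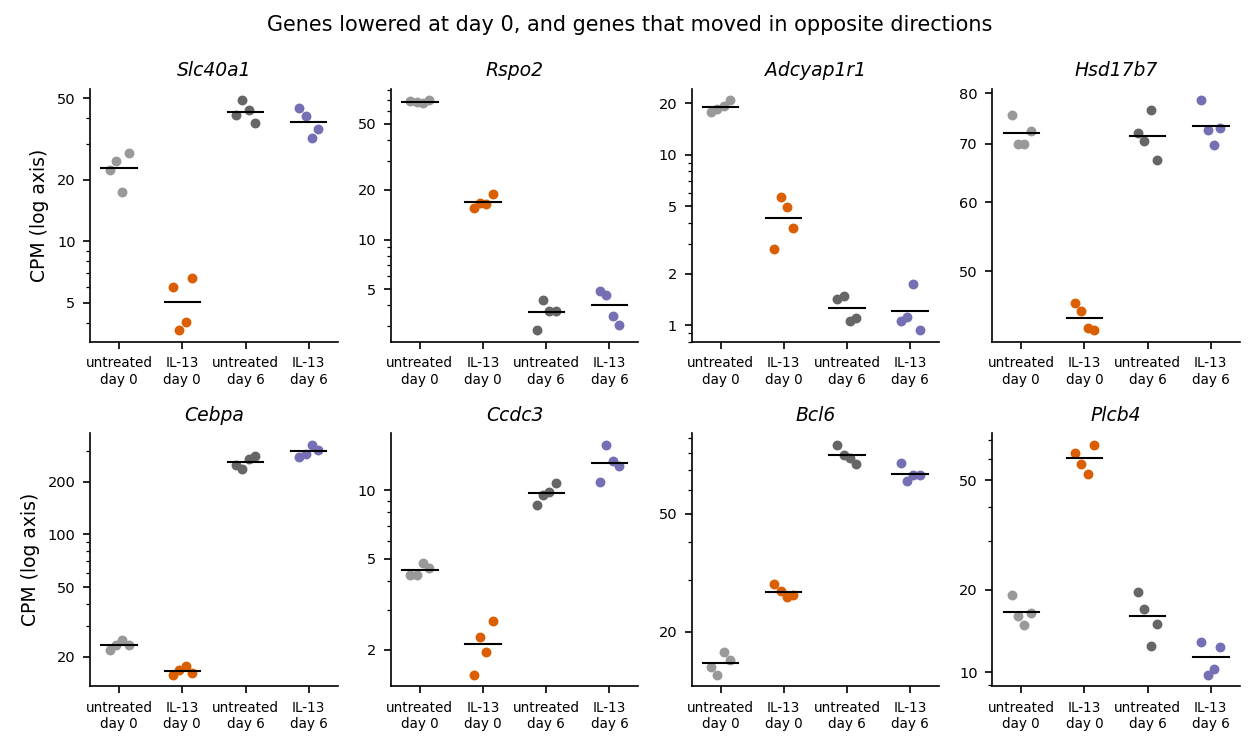
Level in CPM (log axis) of genes lowered by IL-13 at day 0 (Slc40a1, Rspo2, Adcyap1r1, Hsd17b7) and of genes that moved in opposite directions on the 2 days (Cebpa, Ccdc3, Bcl6, Plcb4), 1 point for each library and a line at the group mean. In the upper row only the day 0 groups are apart; in the lower row the order of untreated and IL-13 cells turns between the days.

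Genes of cholesterol synthesis and of the interferon response were more often lower than higher with IL-13 at day 0, and their called differences were positive. Of 23 tested cholesterol genes, 7 had a positive and none a negative difference (30.4% called, against 8.06% over all genes), with a median of 0.19. At day 0, 3 were higher and 9 lower with IL-13, and at day 6, 2 were higher and none lower. The 7 were 4 without the 4 libraries richest in nuclear RNA, 10 with the nuclear RNA index in the fit and 11 with DESeq2, with no negative one in any of these. Among the 7 were Hsd17b7, Hmgcs1, Insig1, Fdft1, Sqle and Cyp51. Hsd17b7, a reductase of the pathway, was at 75.6, 70.0, 70.0 and 72.4 CPM untreated and at 46.0, 45.1, 43.1 and 42.8 CPM with IL-13 at day 0, and at 72.0, 70.5, 76.5 and 67.1 CPM untreated and 78.5, 72.5, 69.8 and 73.0 CPM with IL-13 at day 6. The IL-13 cells of day 0 alone were low, and the other 3 groups overlapped. The difference was 0.74 ± 0.08 (edgeR adjusted p 1.19e-06).

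Of 17 tested interferon response genes, 4 had a positive difference and none a negative one, with a median of 0.27: Ifit3, Gbp2, Ifit2 and Ddx58. They make up 23.5% of the list, against 8.06% called over all genes. Without the 4 libraries richest in nuclear RNA 2 were positive. At day 0, 8 were lower with IL-13 and none higher. Ifit2 was at 64.8 ± 4.09 and 39.9 ± 2.63 CPM at day 0 and at 13.9 ± 1.10 and 14.4 ± 1.55 CPM at day 6 (0.76 ± 0.11, edgeR adjusted p 0.000104). Ifit3 shares 51.2% of its 50-base stretches with another gene and its count is uncertain.

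In genes of the unfolded protein response the called differences were negative. Of 18 tested, 6 had a negative difference and none a positive one (33.3% called, against 8.06% over all genes, median -0.22). At day 0, 13 were higher and 3 lower, against 3 higher and none lower at day 6. The 6 were 11, with 1 positive, when the nuclear RNA index entered the fit, and 4 without the 4 libraries richest in it. Calr, a chaperone of the endoplasmic reticulum, was at 1189 ± 113 and 1920 ± 108 CPM at day 0 and at 497 ± 26.8 and 590 ± 38.9 CPM at day 6, without overlap on either day (difference -0.45 ± 0.10, edgeR adjusted p 0.0073). Xbp1, a transcription factor of the response, was at 74.3 ± 4.02 and 119 ± 7.77 CPM at day 0 and at 150 ± 16.2 and 168 ± 11.6 CPM at day 6, where the groups overlapped (-0.52 ± 0.10). The others were Atf3 (-1.13), Chac1 (-0.62), Pdia6 (-0.35) and Psat1 (-0.33).

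In 3 lists no difference was called. Of 25 tested genes of oxidative phosphorylation, 23 were higher with IL-13 at day 0 and 6 higher and 1 lower at day 6, none had a called difference in edgeR or in DESeq2 (2 at an unadjusted p under 0.05), and the median difference was -0.11. When the nuclear RNA index entered the fit, 7 were called, all negative. The median IL-13 effect of the list was 0.29 at day 0 and 0.16 at day 6, and 0.12 and -0.02 with the index. Over all genes, 21.6% were higher with IL-13 at day 0 and 3.66% at day 6. Cox5b, a subunit of cytochrome c oxidase, had a difference of -0.35 ± 0.11 (edgeR adjusted p 0.0647); 11.9% of its 50-base stretches occur elsewhere. Of 17 tested glycolysis genes, 5 were higher and 2 lower at day 0, a share close to that of all genes, and none was called for the difference in edgeR or DESeq2 (1 at an unadjusted p under 0.05). Of the 22 nuclear RNAs, 18 were lower at day 0 and 21 at day 6 and none was called for the difference in edgeR or DESeq2 (3 at an unadjusted p under 0.05). Neat1, a scaffold of nuclear paraspeckles, was at 99.6, 54.7, 30.5 and 83.1 CPM untreated and at 15.04, 13.8, 10.4 and 15.8 CPM with IL-13 at day 0, and at 237, 188, 89.9 and 116 CPM untreated and 43.4, 30.6, 19.6 and 29.0 CPM with IL-13 at day 6. Its libraries did not overlap on either day, its effects were -2.29 and -2.36, and its difference of -0.07 ± 0.57 was not called (edgeR adjusted p 0.971). A difference between the days was not detectable at this precision.

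In the lists that remain, the called share ranged from 7.69% to 38.5%, against 8.06% over all genes. Feedback inhibitors (38.5% called) had 2 positive (Socs2 and Socs6) and 3 negative (Cish, Socs1 and Pias3) of 13, with Pias3 lost in all 16 fits that each left out 1 library. The gp130 and STAT3 list (30.0% called) had Il6ra (-1.80) and Il6st (-0.52) negative and Osmr (0.57) positive of 10, the receptor subunits of IL-6 and oncostatin M. Wnt genes (28.6% called) had Rspo2, Dkk2 and Lef1 positive and Sfrp1, Fzd1 and Fzd4 negative of 21. Lef1 lost its call without untreated replicate 1 or IL-13 replicate 3 of day 0 or replicate 3 of either day 6 group, and Dkk2 without untreated replicate 3 or IL-13 replicate 1 of day 0. Genes of TGF-beta and BMP had Tgfb3 and Grem1 positive and the receptor Tgfbr2 (-0.78) negative of 22. Iron genes had Slc40a1 positive and Steap3 (-0.9952) and Cp negative of 15, with Cp lost in 15 of the 16 such fits. Immediate early genes had Jun and Atf3 negative of 18, and Jun was lost in 12 of the 16. Fatty acid and triglyceride synthesis had Lpin1 (0.55), which makes diacylglycerol, and Agpat2 positive of 21, and fatty acid oxidation had Acadm (-0.50) and Acadvl negative and Cpt1b positive of 21. Inflammatory genes of the NF-kB pathway had Csf1 (0.47), a macrophage growth factor, positive and Nfkb1 (-0.54) negative of 12. Cell cycle genes had Ccnd2 (0.62) and Top2a (0.27) positive of 26. Without the 4 libraries richest in nuclear RNA, the positive and negative calls were 0 and 1 for feedback inhibitors, 1 and 1 for gp130, 2 and 2 for Wnt, 0 and 1 for TGF-beta and BMP, 1 and 1 for iron, 0 and 1 for immediate early genes and for fatty acid oxidation, and 1 and 0 for triglyceride synthesis and for cell cycle. With the index in the fit, fatty acid oxidation had 1 and 5, iron 2 and 4 and NF-kB 1 and 3. Of the marker lists for other cells, those of macrophages (5 tested), lymphocytes and mast cells (1), skeletal muscle (2) and epithelium (2) held no called difference in edgeR (1, 0, 2 and 1 at an unadjusted p under 0.05; DESeq2 called 1, of skeletal muscle), and the endothelial one held 1 called gene of 4 tested: Flt1, a VEGF receptor, at 0.214 ± 0.0848 and 3.80 ± 0.753 CPM at day 0 and with 4 and 3 counts at day 6 (-4.49 ± 1.18, lost without untreated replicate 2 or 4 of day 6).

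**Figure D5:**
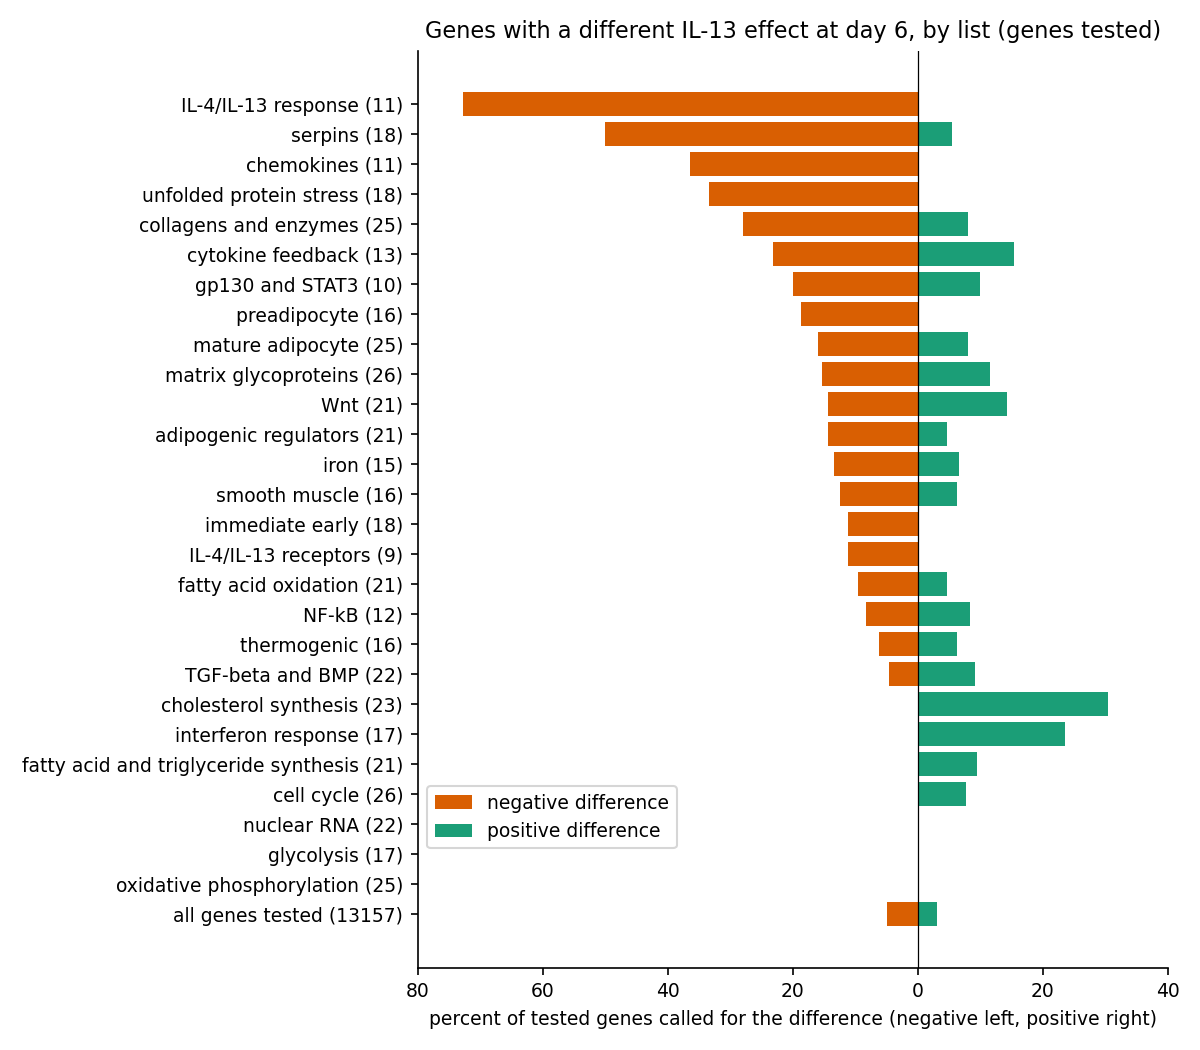
Percent of the tested genes of each list (number tested in brackets) called for the difference, negative to the left in orange and positive to the right in green, with all 13157 genes at the foot. The IL-4 and IL-13 response, serpin and chemokine lists reach furthest to the left, and the bars of cholesterol synthesis (7 of 23) and interferon response (4 of 17) extend to the right.

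In the main fit a few raised genes kept part of their response to day 6. Without the 4 libraries richest in nuclear RNA, only 2 genes raised at least 2-fold were called alike at day 6. Aif1l (ENSMUSG00000001864, chromosome 2, 31950139 to 31973442), an actin-binding protein, was at 14.6, 14.8, 19.0 and 15.05 CPM untreated and at 255, 230, 240 and 248 CPM with IL-13 at day 0. At day 6 it was at 4.83, 5.29, 5.15 and 5.11 CPM untreated and at 7.79, 9.12, 8.09 and 7.58 CPM with IL-13. The groups did not overlap on either day. The log2 effect was 3.94 ± 0.08 at day 0 and 0.68 ± 0.10 at day 6 (edgeR adjusted p 0.00127), and the difference was -3.26 ± 0.13 (edgeR adjusted p 4.76e-13).

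Aldh1a7, an aldehyde dehydrogenase with 7.49% of 50-base stretches shared with another gene, was at 14.9 ± 0.658 and 101 ± 4.94 CPM at day 0 and at 504 ± 13.0 and 610 ± 16.8 CPM at day 6, without overlap on either day (effects 2.76 and 0.27, edgeR adjusted p at day 6 0.0036). Pcolce2, an enhancer of procollagen processing whose promoter window is printed above, was at 7.70 ± 1.56 and 105 ± 2.49 CPM at day 0 and 3.62 ± 0.531 and 5.71 ± 0.780 CPM at day 6 (3.77 and 0.66). Abat, which degrades GABA, had effects of 1.23 and 0.33, and Cdc42ep2, an effector of Cdc42, of 1.01 and 0.37. All of these had a called difference. Itih4, a secreted protease inhibitor, had effects of 1.37 and 0.55 and no called difference (-0.83 ± 0.27, edgeR adjusted p 0.0626).

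Genes lowered at least 2-fold at day 0 and called lower at day 6 with the smallest day 6 p were Rsrp1, a splicing-related protein, Lgals4, a galectin, the long RNA gene AI480526, Rccd1, Eml5 and Dnhd1, and none of them had a called difference. Rsrp1 was at 69.9, 36.5, 25.6 and 65.5 CPM untreated and at 19.6, 16.0, 16.1 and 21.5 CPM with IL-13 at day 0, and at 156, 121, 64.2 and 75.1 CPM untreated and 29.2, 17.2, 17.5 and 21.6 CPM with IL-13 at day 6. Its groups did not overlap on either day, and on both days the untreated libraries richest in nuclear RNA were the highest (difference -0.85 ± 0.51, edgeR adjusted p 0.399). Rccd1 was at 2.58 ± 0.374 and 1.15 ± 0.113 CPM at day 0 and at 5.42 ± 0.911 and 2.76 ± 0.212 CPM at day 6, with effects of -1.16 and -0.98 (difference 0.19 ± 0.23, edgeR adjusted p 0.715).

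In 24 genes the effects of the days were called in opposite directions, and the number was 5, 6, 10 and 6 without untreated replicate 1, untreated replicate 2, IL-13 replicate 2 and IL-13 replicate 3 of day 6, 39 and 52 without untreated replicate 4 and IL-13 replicate 1 of day 6, and 1 without the 4 libraries richest in nuclear RNA. The 5 that were lower at day 0 and higher at day 6 were Ccdc3, Gbp2, Aplp2, Sort1 and Cebpa. Ccdc3, a secreted protein of adipocytes, was at 4.25, 4.25, 4.78 and 4.55 CPM untreated and at 1.56, 2.28, 1.96 and 2.68 CPM with IL-13 at day 0, and at 8.63, 9.57, 9.83 and 10.7 CPM untreated and 10.9, 15.8, 13.4 and 12.7 CPM with IL-13 at day 6. Its groups did not overlap on either day and stood in opposite order (difference 1.52 ± 0.20, edgeR adjusted p 2.26e-05). In Ccdc3, 69.1% of exon bases overlap a gene on the other strand. Sort1, a sorting receptor of Slc2a4 vesicles, was at 26.2 ± 0.568 and 23.2 ± 1.57 CPM at day 0 and 324 ± 13.2 and 378 ± 23.1 CPM at day 6, likewise apart on both days (0.40 ± 0.08, edgeR adjusted p 0.00365).

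Of the 19 that turned from higher to lower, the 5 with the smallest p of the difference were Plcb4, Bmp1, Bcl6, Timp3 and Mylk. Plcb4, a phospholipase C, was at 19.1, 16.0, 14.9 and 16.4 CPM untreated and at 62.8, 57.2, 52.9 and 67.4 CPM with IL-13 at day 0, and at 19.6, 17.1, 12.5 and 14.97 CPM untreated and 12.9, 9.80, 10.3 and 12.3 CPM with IL-13 at day 6. The day 0 groups were wide apart, and those of day 6 overlapped by 1 library. Its difference was -2.35 ± 0.17 (edgeR adjusted p 9.52e-09). Bcl6 (chromosome 16, 23965052 to 23988852), a repressor that competes with Stat6 for DNA, was at 15.2, 14.4, 17.1 and 16.1 CPM untreated and at 28.9, 27.4, 26.2 and 26.5 CPM with IL-13 at day 0, and at 85.3, 79.0, 77.1 and 73.2 CPM untreated and 73.8, 64.5, 67.3 and 67.3 CPM with IL-13 at day 6. The order turned, with 1 IL-13 library of day 6 inside the untreated range (difference -1.002 ± 0.09, edgeR adjusted p 2.49e-07). Bmp1, the procollagen C-proteinase, had effects of 0.63 and -0.37, and Timp3, an inhibitor of metalloproteinases, of 0.55 and -0.30, both without overlap on either day.

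In 40 genes the effect was called at day 6 and not at day 0, 29 with a negative and 11 with a positive difference. The number was 13 and 23 without untreated replicate 1 and 2 of day 6, 69 and 78 without untreated replicate 4 and IL-13 replicate 1 of day 6, and 4 without the 4 libraries richest in nuclear RNA. With a day 0 p above 0.05, those that rose with the smallest p of the difference included Mrps6, a mitochondrial ribosome protein (84.3 ± 6.81 untreated and 102 ± 4.89 CPM with IL-13 at day 6), Stom, a membrane scaffold protein (125 ± 3.30 and 149 ± 4.57 CPM), Iqgap1, a scaffold of the actin cortex (154 ± 6.30 and 180 ± 11.4 CPM) and Pir, pirin (7.76 ± 0.784 and 10.4 ± 1.17 CPM). Their differences lay between 0.27 and 0.62, and Gfra1, described above, had a larger one with a larger p. Those that fell with the smallest p of the difference were Supt20, a subunit of the SAGA complex (34.3 ± 5.10 and 21.0 ± 2.87 CPM), Micall1 (88.2 ± 7.57 and 66.1 ± 9.34 CPM), Klhdc8b (3.93 ± 1.87 and 0.859 ± 0.317 CPM), Tchp (8.49 ± 0.733 and 6.07 ± 0.328 CPM) and Sec16b, of vesicle export sites (15.1 ± 1.36 and 9.45 ± 1.47 CPM), with differences from -0.56 to -1.76. Mrps6 shares 17.3% of its 50-base stretches with another gene, and 26.7% of the exon bases of Micall1 overlap a gene on the other strand.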

How the data were processed

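Reads of the 16 libraries were counted per gene by the authors. Per the file headers, the deposited tables, 1 for each day, hold total counts for 41325 genes, which are whole numbers and were the only values used. The authors' deposited RPKM and TPM values were not used beyond checking their unit, and the authors' deposited CPM values count here as a score because their library sizes were adjusted. The authors' own comparison columns were not used. The build is mm10, per the submitters' processing notes; for the aligner, counting tool, annotation and use of the strand, the names are not given in the sources. Columns of per-library values left unassigned numbered 0.

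The tables were joined by gene identifier and fitted over all 16 libraries with edgeR 4.0.16 in R 4.3.3: TMM scaling, the expression filter at its defaults (minimum count 10, minimum total 15), 1 mean for each group, the robust quasi-likelihood test and Benjamini-Hochberg adjustment over the 13157 genes tested. The difference is the contrast of the day 6 and day 0 effects of that fit. The pipeline was tested on simulated data. DESeq2 1.42.0 was an alternative, as were other scalings, no filter, a replicate block, a nuclear RNA covariate and leaving out libraries. Floors cover counting error only, and copies made in amplification are not independent molecules. The SE of a log2 difference comes from the fit and so takes in the variation between libraries.

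The members and the 32 gene lists (570 distinct genes) were chosen with earlier results of these data known. Named genes were the 12 largest called differences in each direction and averaging at least 1 in log2 CPM; a panel of 31 genes; up to 6 in each direction changed at least 2-fold at day 0 and called alike at day 6; up to 5 in each direction called in opposite directions; up to 5 called at day 6 with a day 0 p above 0.05; and up to 3 of each list. Other list members, named to complete a count, were picked with their values in view. Some genes that this choice named are left out of the text.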

Additional observations from a re-analysis of the deposited data

Results flagged for a closer look

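In 508 groups of 4 libraries of the named genes, 25 held 1 library apart from the other 3 by Dixon's 95% critical value, and chance flags about 1 in 20 groups. Among untreated cells of day 0 the library apart was at 11.7 CPM for Cish, 19.0 for Aif1l and 9.21 for Il6ra. Among IL-13 cells of day 0 it was at 3.24 CPM for Elf3, 120.3 for Crispld2, 99.6 for Tgm2, 0.0633 for Adipoq, 101.3 for Pcolce2 and 4.55 for Serpina3f. Among untreated cells of day 6 it was at 32.9 CPM for Hlf, 0.132 for Slc1a6, 90.4 for Dcn, 0.594 for Socs1, 16058 for Fabp4, 25.9 for Mylk, 1.84 for Dlk1, 1138 for Insig1 and 2.58 for Col14a1. Among IL-13 cells of day 6 it was at 14.9 CPM for Elf3, 585 for Aldh1a7, 432 for Cox5b, 25.8 for Atf3, 39.5 for Jun, 81.7 for Tgfbr2 and 0 for Flt1.

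The IL-13 effects of the days were called in opposite directions, with a called difference, in 24 genes. The differences (log2, edgeR) were -2.35 for Plcb4, -0.99 for Bmp1, -1.002 for Bcl6, -0.85 for Timp3 and -0.71 for Mylk, and 1.52 for Ccdc3, 1.08 for Gbp2, 0.70 for Cebpa, 0.40 for Sort1 and 0.36 for Aplp2.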

How the results depend on the processing

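Of the 127 genes of the text, 116 had a called difference, 82 of these kept the call under all 24 alternatives and 0 took the other sign. Leaving out 1 library gave 836 to 1269 differences, 409 to 696 positive and 418 to 747 negative, 388 to 703 negative in genes raised at day 0 (smaller rises) and 381 to 663 positive in genes lowered at day 0 (smaller falls), 5 to 52 opposite and 13 to 78 at day 6 only. It gave 7 to 48 raised and 48 to 148 lowered genes called alike at day 6, and 324 to 3182 calls at day 6.

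The labels do not say what a replicate number shares. The main fit therefore did not take the numbers as pairing, and its counts leave out anything that the numbers share. Same-numbered libraries correlated between -0.083 and 0.215, and 9 of 16 pairs, including all those of replicates 1 and 3, were over 0.1. Of 16 comparisons 11 matched their own number best, a hint from the data and not the design, and replicate 1 had the most and replicate 3 the least nuclear RNA in each group. With the replicate block, and then with a replicate block within each day, differences numbered 1608 and 1787 (619 and 712 positive, 989 and 1075 negative), opposite effects 64 and 87, day 6 only 117 and 134, raised genes called alike 37 and 42, and day 6 calls 2926 and 3220; the block within each day gave 950 smaller rises and 667 smaller falls.

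With the nuclear RNA covariate, differences numbered 2118 (827 positive, 1291 negative), day 0 calls 1455, day 6 calls 0, genes lowered at least 2-fold 116, and opposite, day 6 only and both sets called alike 0. The index separated IL-13 from untreated libraries within each day, so in these counts the index and IL-13 cannot be told apart. Without the 4 libraries, differences numbered 545 (231 and 314), smaller rises 301 and falls 224, opposite 1, day 6 only 4, raised called alike 2, lowered at least 2-fold 168 and called alike 4, day 0 calls 2353 and day 6 calls 37; fewer libraries were used. DESeq2 gave 616 positive, 50 opposite, 72 at day 6 only, 42 raised called alike and 2352 day 6 calls; the size factors gave 30 raised called alike, total counts 8, and the 8 libraries of day 6 alone 809 calls. Total count scaling moved the median of all day 0 effects to -0.13. No filter gave 522 positive and 446 negative.

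Uncalled differences changed sign: Stat6 was 0.00948 with size factors, 0.00913 with DESeq2, 0.0333 with total counts, 0.0301 with no filter, 0.0373 without the 4 libraries, and -0.0479 to 0.0528 without 1 library. Firre was -0.32 without the 4 libraries and -0.22 to 0.47 without 1. Neat1 was 0.26 with the covariate and -0.29 to 0.23 without 1. Where no cause is named, it was not tested. Genes under about 1 CPM rest on few counts.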
